A study of Mus musculus with 9 samples.

Results

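The genes described here encode 10 integrin chains of mouse B cells: the alpha chain genes Itgam, Itgax, Itgad, Itgal, Itga4 and Itga6, and the beta chain genes Itgb1, Itgb2, Itgb3 and Itgb7. They were taken by gene symbol from the expression table, which lists 24346 genes, and all 10 were found in each of 9 libraries. RNA-seq had been carried out on B cells sorted from the spleens of wild-type C57BL6 mice, with 3 libraries of FO B cells at 8 weeks of age (called young), 3 of FO B cells at 50 weeks (aged) and 3 of ABCs, the age-associated B cells, at 50 weeks. The gate for FO B cells included B220hi, CD43-, CD23+ and CD21lo, and that for ABCs included B220hi, CD43-, CD23- and CD21lo with both CD11b and CD11c positive. CD11b and CD11c are the proteins of Itgam and Itgax, so how far these transcripts differed between the sorted populations was set by the gate and is given only as a description. The study's figure legend gives 3 mice per group, and as the labels do not tie a library to a mouse, p-values measure the spread between these libraries. In bulk RNA of sorted cells, fewer cells of a type and less RNA per cell cannot be told apart.

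Integrins are heterodimers of an alpha and a beta chain that span the plasma membrane, bind matrix proteins or adhesion molecules of other cells, and connect them to the actin cytoskeleton. A beta chain can serve several alpha chains: the products of Itgal, Itgam, Itgax and Itgad all pair with that of Itgb2, the product of Itga4 pairs with that of Itgb1 or Itgb7, and the product of Itga6 pairs with that of Itgb1. On B cells, the Itgal and Itgb2 product (LFA-1) binds Icam1 and the Itga4 and Itgb1 product (VLA-4) binds Vcam1, and both hold cells in the spleen and in lymphoid follicles. Resting integrins are turned on from inside the cell by the small GTPase Rap1 and by talin, which binds the tail of the beta chain.

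GENCODE M21, on the assembly GRCm38 (mm10), annotates all 10 genes as protein-coding. All alpha chain genes that pair with Itgb2 lie on the plus strand of chromosome 7: Itgal at chr7:127296260-127335138, Itgam at chr7:128062640-128118491, Itgax at chr7:128129547-128150657 and Itgad at chr7:128154376-128223816. Itgam, Itgax and Itgad follow each other with gaps of 11055 and 3718 bases and together span 161177 bases, and 727501 bases separate the end of Itgal from the start of Itgam. Itga6 (chr2:71745616-71858416) and Itga4 (chr2:79255426-79333123) share chromosome 2. The beta chain genes are each on a chromosome of their own, Itgb1 at chr8:128685654-128733200, Itgb2 at chr10:77530252-77565708, Itgb3 at chr11:104608000-104670476 and, on the minus strand, Itgb7 at chr15:102215995-102231944.

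The 250 bases before the RefSeq start (GRCm38.p6) are shown for Itgam, Itgax and Itgb1, the members with the widest distance between ABCs and FO B cells, and for Itgb7, which had a like level in both. Capitals mark matches, on either strand, to GAGGAA (the core bound by PU.1), GGGCGG (a GC box), TGTGGT (a RUNX core) or TGANTCA (an AP-1 site). The windows lie at chr7:128062390-128062639 on the plus strand for Itgam, at chr7:128129300-128129549 on the plus strand for Itgax, at chr8:128685404-128685653 on the plus strand for Itgb1 and at chr15:102231936-102232185 on the minus strand for Itgb7.
Itgam: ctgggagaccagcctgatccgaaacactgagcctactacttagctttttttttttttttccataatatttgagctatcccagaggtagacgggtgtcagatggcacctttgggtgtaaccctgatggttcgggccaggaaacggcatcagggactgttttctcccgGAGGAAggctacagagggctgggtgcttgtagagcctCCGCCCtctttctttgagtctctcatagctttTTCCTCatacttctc
Itgax: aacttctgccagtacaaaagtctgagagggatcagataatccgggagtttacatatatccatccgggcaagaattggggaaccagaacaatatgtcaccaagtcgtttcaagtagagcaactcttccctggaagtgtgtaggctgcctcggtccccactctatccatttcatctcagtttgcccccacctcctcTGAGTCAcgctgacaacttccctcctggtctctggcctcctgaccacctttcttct
Itgb1: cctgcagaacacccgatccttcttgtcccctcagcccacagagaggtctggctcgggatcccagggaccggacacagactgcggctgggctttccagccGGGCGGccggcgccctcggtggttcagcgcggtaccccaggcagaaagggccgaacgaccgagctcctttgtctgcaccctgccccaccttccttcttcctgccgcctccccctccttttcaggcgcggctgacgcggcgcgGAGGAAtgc
Itgb7: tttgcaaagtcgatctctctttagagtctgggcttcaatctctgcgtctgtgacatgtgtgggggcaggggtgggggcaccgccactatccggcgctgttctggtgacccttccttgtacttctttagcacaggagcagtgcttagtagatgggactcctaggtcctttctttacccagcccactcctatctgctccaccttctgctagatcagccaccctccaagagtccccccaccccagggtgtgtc

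Motifs were searched in RefSeq windows of 300 bases, with 50 bases after the start included, and such windows were held for 5 of the 10 members, these 4 and Itga4. GAGGAA was matched 3 times in the Itgam window, 2 of them before the start, and once each in those of Itgb1 and, after the start, Itgb7. Of all 32851 mouse windows of this length, 28.3% held GAGGAA, 35.7% GGGCGG, 16.8% TGTGGT and 7.81% TGANTCA. Neither AGGTGT, a core bound by T-box factors, nor CAGGTG, an E-box bound by ZEB factors, was matched in any of the 5 windows, whereas 13.7% and 20.2% of all windows held them. GC made up 67.3% of the Itgb1 window, 56.3% of that of Itgb7, 50.3% of that of Itgam and 50% of that of Itgax, against a median of 52.7% over all windows. A match is a stretch of letters, and none of these factors was measured here on the DNA.

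Expression was given as FPKM, fragments scaled to transcript length and to the mapped reads of the library, a scale per length on which levels of different genes can be set side by side. The libraries held an estimated 8060000 to 9800000 reads and 10032 to 10445 genes at 1 FPKM or more. All 8 B lineage markers had a mean of at least 1 FPKM in every group. ABC replicate 3 stood apart from the other ABC libraries, with a mean correlation of 0.961 with its group against 0.969 and 0.972. Results that rest on this library are given without it.

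**Figure D1:**
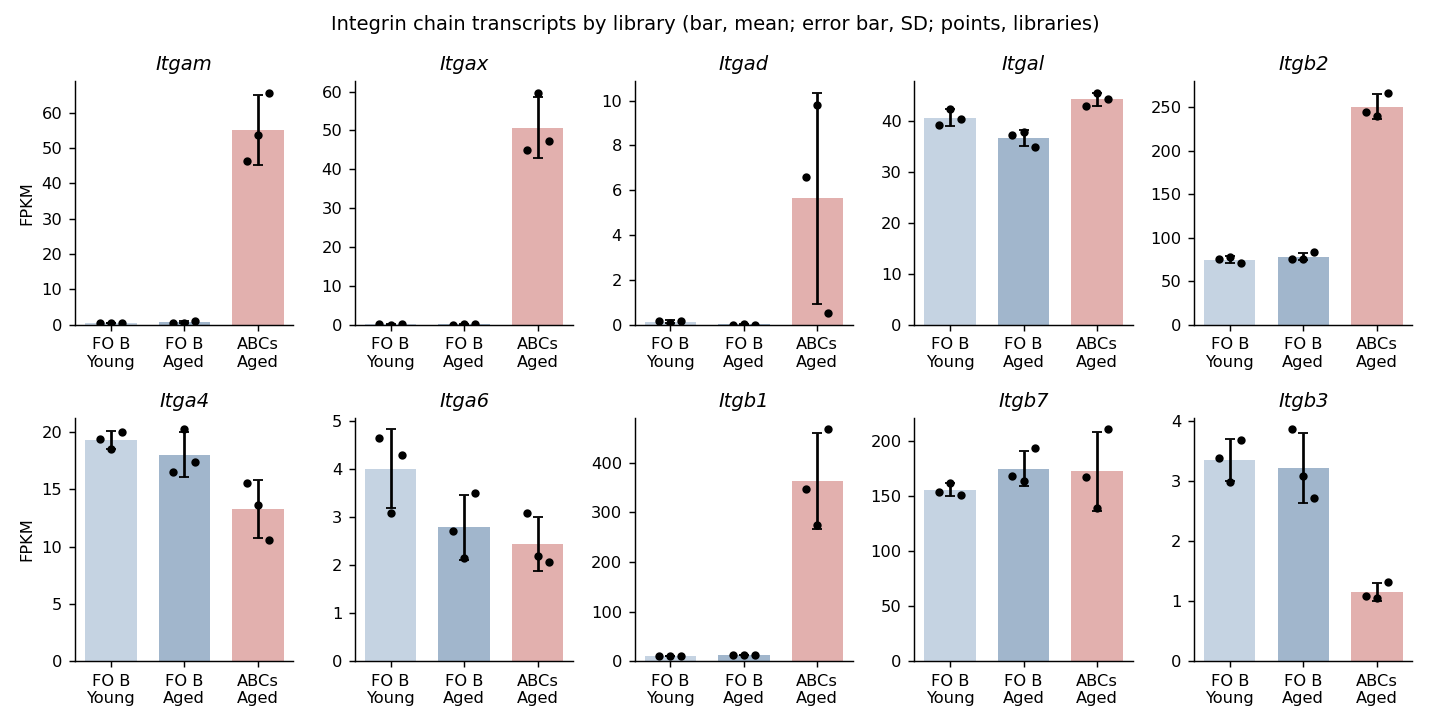
FPKM of the 10 integrin chain genes in each library (y axis, linear from 0, with its own scale per gene), by group on the x axis. Bars are means, error bars SD and points the 3 libraries of a group. Itgb1 and Itgb2 stand higher in all ABC libraries than in any FO B library, Itgb3 stands lower, and Itgad spreads from 0.515 to 9.80 FPKM among ABCs.

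The first comparison was of ABCs with aged FO B cells, to find what sets ABCs apart at the same age. Itgb1, the shared beta chain of matrix and Vcam1 receptors, was 27.9-fold higher in ABCs, and Itgb2, the beta chain of the leukocyte integrins, was 3.20-fold higher. Itgal was 1.21-fold higher and Itgb3 was lower, at 0.358 of its level in FO B cells. Itga4, Itga6 and Itgb7 did not pass the test. The test was limma on log2(FPKM + 1), a scale that understates changes of low genes, with a call at an FDR under 0.05 over the 10412 genes that averaged 1 FPKM or more. It called 6 members higher and 1 lower, while 19.4% of all tested genes were called higher and 16.5% lower. Itgam, Itgax and Itgad passed the filter on low values only through the ABC libraries. Of the 7 members that passed it through both groups, Itgal, Itgb1 and Itgb2 were higher and Itgb3 was lower. Without ABC replicate 3, 6 members were again called higher and 1 lower, beside 1963 and 1680 of all 10368 tested genes.

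Of the beta chains, Itgb1 differed most. It was measured at 12.98, 12.90 and 13.11 FPKM in aged FO B cells and at 347, 275 and 467 FPKM in ABCs. The groups lay far apart, and the ABC libraries also spread more among themselves. The log2 fold change was 4.67 ± 0.17 (SE, n = 3 each, FDR = 9.7e-06). Itgb1 was thereby the member with the highest level in ABCs, where 97.0% of the genes at 1 FPKM or more were below it in replicate 1, while in replicate 1 of the aged FO B cells 44.5% were.

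Itgb2, whose loss causes leukocyte adhesion deficiency, was at 75.5, 76.1 and 83.3 FPKM in aged FO B cells and at 245, 241 and 267 FPKM in ABCs. The groups did not overlap and each was tight. Its log2 fold change was 1.67 ± 0.07 (SE, FDR = 1.4e-05). The Itgb2 product pairs with CD11b and CD11c, by which ABCs were sorted. How far the gate bears on the Itgb2 level was not tested. Itgb3, which pairs with Itgav or with the platelet chain Itga2b, was at 3.86, 3.08 and 2.72 FPKM in aged FO B cells and at 1.09, 1.05 and 1.32 FPKM in ABCs. All ABC libraries were below all FO B libraries, with a log2 fold change of -0.96 ± 0.16 (SE, FDR = 0.0036).

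Itgb7, the beta chain of the gut homing receptor, had the highest level of all members in FO B cells. It was at 168, 164 and 194 FPKM in aged FO B cells and at 168, 139 and 211 FPKM in ABCs. The groups overlapped, and the log2 fold change of -0.04 had a 95% interval of -0.39 to 0.31 (FDR = 0.86). A change of the size seen for Itgb2 lies outside this interval.

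Of the alpha chains that pair with Itgb2, Itgal was already high in FO B cells. It was at 37.2, 38.0 and 34.9 FPKM in aged FO B cells and at 43.0, 45.6 and 44.4 FPKM in ABCs. The groups did not overlap, yet the step was small, with a log2 fold change of 0.27 ± 0.07 (SE, FDR = 0.021). This call was lost when values were scaled to TPM (FDR = 0.057) and without replicate 1 (0.058) or 3 (0.077) of the aged FO B cells or ABC replicate 2 (0.057), and the FDR ranged from 0.0074 to 0.077 over all alternatives.

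Itgam and Itgax, the gate genes, were near 0 in FO B cells. Itgam was at 0.495, 0.520 and 0.980 FPKM in aged FO B cells and at 46.2, 53.6 and 65.7 FPKM in ABCs, an 83.0-fold ratio of means. Itgax was at 0.0322, 0.106 and 0.206 FPKM and at 45.03, 59.7 and 47.3 FPKM in the same order. Whole reads could be recovered for these genes from the FPKM values, and the FO B values rest on few of them: 80 reads of Itgam and 12 of Itgax over the 3 libraries of aged FO B cells, against 6300 and 4974 in ABCs. Per depth, the ratio was 437 for Itgax, with a 95% interval of 250 to 846 from counting error alone.

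Itgad, the alpha chain next to Itgax in the genome, was no part of the gate. It was at 0, 0.0538 and 0 FPKM in aged FO B cells and at 6.58, 9.80 and 0.515 FPKM in ABCs. ABC replicates 1 and 2 were therefore high, with 203 and 334 reads, and ABC replicate 3 was low, with 16. Per depth, the 553 reads in ABCs against 2 in aged FO B cells gave a ratio of 291, with a 95% interval of 80.3 to 2412 that covers counting error only. As Itgad entered the test only through the ABC libraries, its values are given as a description, with no test. On the log2(FPKM + 1) scale the difference was 2.29, and 3.15 without ABC replicate 3. Genes on the opposite strand within Itgad moved in the same libraries: Cox6a2, a subunit of cytochrome c oxidase, was at 4.10, 8.91 and 0.815 FPKM in ABCs and 4931431B13Rik at 0.470, 2.55 and 0. The library kit does not mark strand, so reads of these genes and of Itgad cannot be told apart where they overlap.

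Itga4 and Itga6 pair with Itgb1, and neither was called higher. Itga4 was at 16.5, 20.2 and 17.3 FPKM in aged FO B cells and at 15.6, 13.6 and 10.6 FPKM in ABCs. The ABC libraries were lower without overlap, but the log2 fold change of -0.43 ± 0.15 (SE) missed the threshold (FDR = 0.059). With all 9 libraries in the fit the FDR was 0.025, and it ranged from 0.025 to 0.22 over the alternatives. Without ABC replicate 3, where Itga4 was lowest, the log2 fold change was -0.29, the smallest in size over the alternatives. Itga4 overlaps Cerkl on the opposite strand, which was at 2.76 to 5.94 FPKM over all libraries. Itga6, a laminin receptor chain, was at 2.71, 2.14 and 3.50 FPKM in aged FO B cells and at 3.08, 2.18 and 2.06 FPKM in ABCs. The groups overlapped, and the 95% interval of its log2 fold change was -0.58 to 0.32 (FDR = 0.62).

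**Figure D2:**
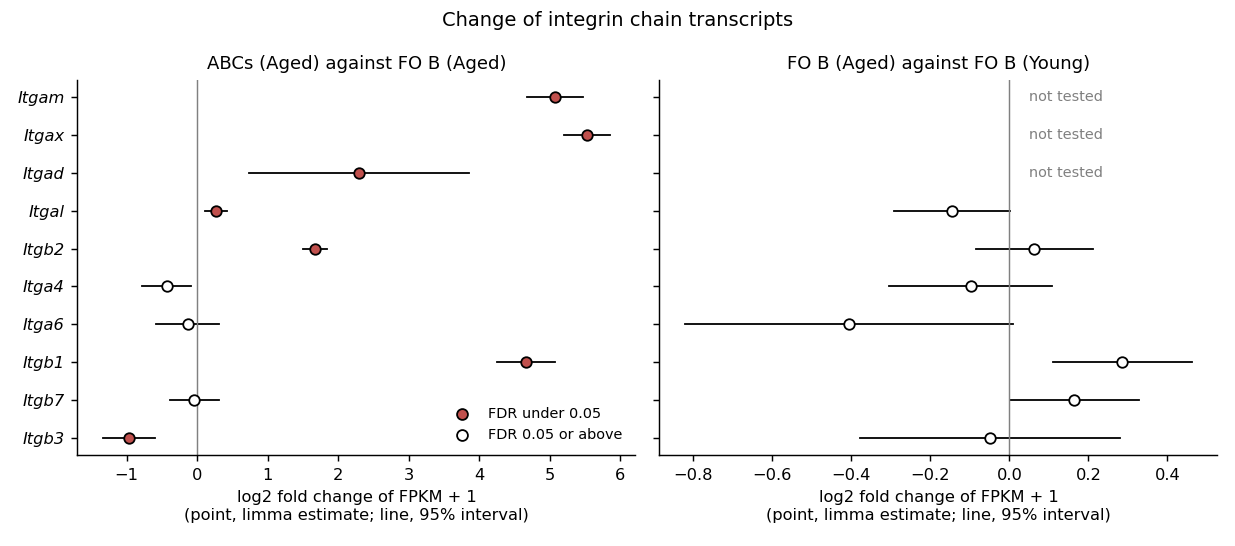
Log2 fold change of FPKM + 1 (x axis) for each integrin chain gene (y axis), in ABCs against aged FO B cells (left) and in aged against young FO B cells (right). Points are limma estimates, lines 95% intervals, and filled points passed an FDR of 0.05. The x axes differ in scale. Itgad entered the left test only through ABCs, and Itgam and Itgax were also set by the gate. Estimates run from -0.96 to 5.53 on the left and from -0.41 to 0.29 on the right, where no point is filled.

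At the thresholds of an FDR under 0.01 and an absolute log2 fold change above 2.3, Itgam, Itgax and Itgb1 were called higher and no member lower. Over all tested genes 1.49% were called higher and 0.432% lower by this rule. Itgb1 was the only one of the 3 that neither the gate nor the filter on low values had fixed. Over the 7 members that passed the filter through both groups the median log2 fold change was -0.04, beside -0.01 over all tested genes.

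FO B cells of young and aged mice were compared to see how these genes differed between the 2 ages within 1 sorted population. No member was called by limma, of 7 tested, while 0.346% of the 10122 tested genes were called higher in aged mice and 0.119% lower. At an unadjusted p under 0.05 there were 2 members, Itgb1 and Itgb7, of 7, and 12.8% of all tested genes. Itgb1 was at 10.4, 10.8 and 10.2 FPKM in young mice and at 12.98, 12.90 and 13.11 FPKM in aged mice. The groups were narrow and did not overlap, with a 1.24-fold ratio of means and a log2 fold change of 0.29 ± 0.08 (SE, FDR = 0.17). An exact permutation test of mean FPKM gave p = 0.1, the smallest that 3 against 3 libraries allow.

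Itgb7 was at 154, 163 and 151 FPKM in young mice and at 168, 164 and 194 FPKM in aged mice (log2 fold change 0.16, FDR = 0.39). Itgal was at 39.1, 42.4 and 40.5 FPKM in young mice and at 37.2, 38.0 and 34.9 FPKM in aged mice (log2 fold change -0.14, FDR = 0.40). For both genes the 2 groups lay next to each other without overlap. Itga6 was at 4.64, 3.08 and 4.28 FPKM in young mice, where Itga4 was at 19.4, 18.5 and 19.98 FPKM, Itgb2 at 76.0, 78.1 and 70.6 FPKM and Itgb3 at 3.39, 2.98 and 3.68 FPKM. In each of these 4 genes the young libraries overlapped those of aged mice, and the FDR was between 0.40 and 0.93.

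Itgam, Itgax and Itgad were under the filter in FO B cells and were not tested between ages. In young mice Itgam was at 0.428, 0.610 and 0.405 FPKM, Itgax at 0.0589, 0 and 0.178 FPKM, and Itgad at 0.180, 0.0606 and 0.181 FPKM. The Itgad values come from 14 reads in young mice and 2 in aged mice.

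ABCs were also set beside young FO B cells, a comparison that shares its ABC libraries with the first. Of the 10 members, 5 were called higher and 2 lower, with 21.6% of 10438 tested genes called higher and 19.1% lower. Itgam, Itgax and Itgad, 3 of the 5, again entered the test only through ABCs. The log2 fold change of Itgb1 was 4.95 (4.67 against aged FO B cells), that of Itgb2 1.73 (1.67) and that of Itgb3 -1.01 (-0.96). Itgal, at 0.12 with an FDR of 0.18, was not called against young FO B cells, and Itga4, at -0.53 with an FDR of 0.019, was. The FDR of Itga4 was 0.061 and 0.066 without replicates 1 and 3 of the young FO B cells and 0.0997 with no filter. Itga6, at -0.54, lay just above the threshold (FDR = 0.0503) and ranged from 0.028 to 0.18 over the alternatives.

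The levels of the chains relative to each other were not those of FO B cells in ABCs. In aged FO B cells the order of means was Itgb7, Itgb2, Itgal, Itga4, Itgb1, Itgb3, Itga6, Itgam, Itgax and Itgad. Among neighbours in that order, the libraries of Itgb3 and Itga6 overlapped, as did those of Itgax and Itgad. In ABCs the order was Itgb1, Itgb2, Itgb7, Itgam, Itgax, Itgal, Itga4, Itgad, Itga6 and Itgb3. There Itgam and Itgax, Itgax and Itgal, and Itgad and Itga6 overlapped. In young mice the order was as in aged FO B cells, except that Itga6 stood before Itgb3 and Itgad before Itgax, both pairs with overlap.

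Itgal made up 98.6%, 98.2% and 96.7% of the summed FPKM of the alpha chains that pair with Itgb2 in aged FO B cells, and 98.3%, 98.4% and 98.1% in those of young mice. In ABCs it made up 30.5%, 27.0% and 28.1%. Itgam then took 32.8%, 31.8% and 41.6% of the sum, Itgax 32.0%, 35.4% and 29.99%, and Itgad 4.67%, 5.81% and 0.326%. As the gate acts on this share, it is given for ABCs with no test, and between young and aged FO B cells the exact permutation test gave p = 0.8.

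The summed alpha chains of this family stood to Itgb2 in a ratio of 0.500, 0.507 and 0.434 in aged FO B cells and of 0.574, 0.701 and 0.591 in ABCs. The sum itself was 4.15-fold higher in ABCs and Itgb2 3.20-fold, so that the ratio was higher by 0.142 on average. As the sum holds the gate genes, this difference has no test either. In young FO B cells the ratio was 0.524, 0.552 and 0.584, and in aged ones it was lower by 0.0729 on average, without overlap (exact permutation test, p = 0.1, the smallest possible).

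Itgb1 and Itgb7 share Itga4 as a partner, and their balance turned over in ABCs. Itgb7 made up 92.8%, 92.7% and 93.7% of their sum in aged FO B cells, 93.7%, 93.7% and 93.6% in those of young mice, and 32.6%, 33.6% and 31.1% in ABCs. The drop against aged FO B cells was 60.6 percentage points, with SDs of 1.27 in ABCs and 0.517 in FO B cells (exact permutation test, p = 0.1, the smallest possible). Between young and aged FO B cells the share differed by 0.633 percentage points (exact permutation test, p = 0.2).

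**Figure D3:**
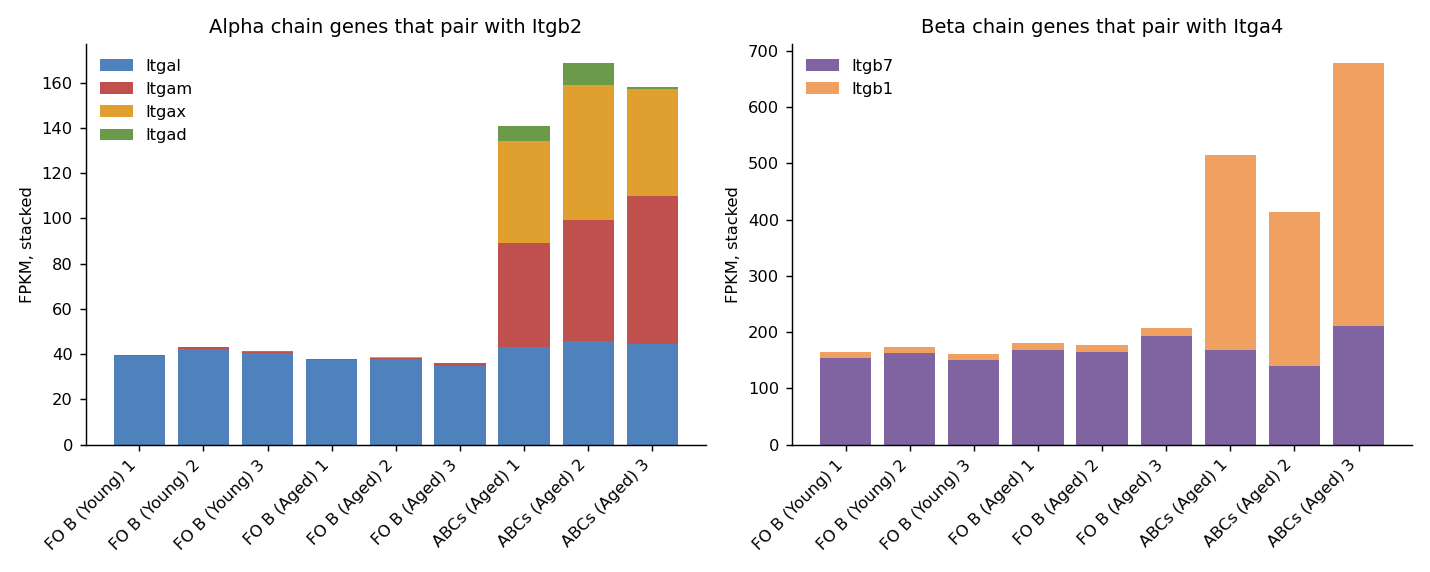
Stacked FPKM (y axis, linear from 0) in each of the 9 libraries (x axis) of the alpha chain genes that pair with Itgb2 (left) and of Itgb7 and Itgb1 (right). On the left, Itgal has much the same height in every library while Itgam and Itgax appear in ABCs. On the right, Itgb7 is at the base of every bar and Itgb1 exceeds it in all ABC libraries.

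The alpha chains that can pair with Itgb1 did not keep step with it. Summed over 12 genes, they were at 24.4, 27.3 and 25.9 FPKM in aged FO B cells and at 27.0, 24.3 and 19.1 FPKM in ABCs. The groups overlapped (exact permutation test, p = 0.4). The ratio of Itgb1 to this sum, a measure chosen after the values were seen, was 0.346, 0.383 and 0.338 in young and 0.532, 0.472 and 0.506 in aged FO B cells, and 12.8, 11.3 and 24.5 in ABCs. It was highest in ABC replicate 3, and without it the mean difference between ABCs and aged FO B cells fell from 15.7 to 11.6.

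Other integrin chains were rare in these cells. Of 17 further chain genes, 14 were under a mean of 1 FPKM in ABCs and aged FO B cells, and 3 were tested. Itgae, which pairs with Itgb7 to bind E-cadherin, was at 0.204 to 0.279 FPKM in aged FO B cells and at 3.57, 4.96 and 4.81 FPKM in ABCs. Itga2, a collagen receptor chain that pairs with Itgb1, was at 0.0280 to 0.0613 FPKM and at 3.19, 3.16 and 1.21 FPKM. All ABC libraries were above all FO B libraries in both genes, but both passed the filter only through ABCs, so no test is given. Itgav, the partner of Itgb3, was at 0.90 of its FO B level in ABCs (log2 fold change -0.12, FDR = 0.43).

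Of 18 genes for integrin ligands, 4 were tested, 2 were called higher in ABCs and 1 lower (against 19.4% and 16.5% over all tested genes), with a median log2 fold change of 0.28. Vcam1, 1 of the 2, passed the filter only through ABCs. Icam1, a ligand of the Itgal and Itgb2 product, was at 58.4 ± 6.97 FPKM (SD, n = 3) in FO B cells at 50 weeks and 108.5 ± 6.94 in ABCs (log2 fold change 0.89, FDR = 0.00065). Vcam1, a ligand of the Itga4 and Itgb1 product, was at 0.497 ± 0.163 FPKM in aged FO B cells and 2.69 ± 0.92 FPKM in ABCs, given with no test. Icam2, another ligand of the Itgal and Itgb2 product, fell from 158.7 ± 3.29 to 111.1 ± 11.3 FPKM (FDR = 0.0034). These counts were the same without any single library, where 1496 to 1963 of all tested genes were called higher and 1054 to 1680 lower.

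Of 17 genes that turn integrins on, 13 were tested, 4 were higher and 3 lower in ABCs, shares near the 19.4% and 16.5% over all tested genes, and the median log2 fold change was -0.04. Tln1, the talin gene, rose from 28.6 ± 1.68 to 53.7 ± 8.92 FPKM (FDR = 0.0016) and Skap2, an adaptor in integrin signalling of myeloid and B cells, from 54.9 ± 1.77 to 103.0 ± 13.6 FPKM (FDR = 0.00071). Skap1, its relative known from T cells and 1 of the 3 lower genes, was at 0.366 ± 0.168 FPKM in ABCs against 2.12 ± 1.02, and passed the filter only through FO B cells. Of the other activators tested, Fermt3, the kindlin of blood cells, had a log2 fold change of -0.06 (FDR = 0.48). Without ABC replicate 3, 4 activators were called higher and 4 lower, where 1963 of all 10368 tested genes were higher and 1680 lower. Without replicate 2 or 3 of the aged FO B cells 4 and 1 were called. There the lower calls over all tested genes fell from 1719 to 1219 and 1114.

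Among 10 genes that restrain integrins or Rap1, all tested, 5 were called higher and 1 lower (against 19.4% and 16.5% over all tested genes), with a median log2 fold change of 0.22. Of the 5, 2 passed the filter only through ABCs. Sipa1, a GTPase-activating protein of Rap1, fell from 141.1 ± 23.4 to 71.4 ± 9.80 FPKM (FDR = 0.0026). These 2 were Rap1gap2 and Rap1gap, which act on Rap1 in the same way, at 0.642 ± 0.308 FPKM in aged FO B cells and 3.13 ± 0.99 in ABCs, and at 0.667 ± 0.088 and 1.94 ± 0.40 FPKM, given with no test. Both stayed far below Sipa1 in level. Without ABC replicate 1 or 2, or replicate 1 or 2 of the aged FO B cells, 3 genes of this list were called higher, and 6 without ABC replicate 3. Higher calls over all tested genes were 1624, 1753, 1496, 1687 and 1963 in that order, against 2020 with no library left out.

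Of 16 adaptors and kinases of adhesion sites, 11 were tested, 2 were higher and 3 lower, shares near the 19.4% and 16.5% over all tested genes, with a median log2 fold change of -0.12. Ptk2b, the kinase PYK2 that acts below integrins and chemokine receptors, fell from 144.5 ± 1.15 to 80.5 ± 5.28 FPKM (FDR = 0.00019), and Nedd9, a docking protein of the same pathway, from 114.6 ± 1.75 to 75.7 ± 23.1 FPKM (FDR = 0.033). Ptk2, the focal adhesion kinase, rose from 4.30 ± 0.51 to 6.23 ± 0.81 FPKM (FDR = 0.040). Without ABC replicate 3, 1 gene of the list was called higher and 4 lower, and without replicate 1 or 3 of the aged FO B cells 1 and 1. In that order, 1963, 1496 and 1545 of all tested genes were higher and 1680, 1054 and 1114 lower. With no library left out it was 2020 and 1719.

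Of 10 membrane proteins that sit beside integrins, all tested, 4 were higher and 1 was lower (against 19.4% and 16.5% over all tested genes), with a median log2 fold change of 0.38. Cd9, a tetraspanin that binds Itgb1 integrins, rose from 9.01 ± 1.72 to 78.3 ± 5.15 FPKM (log2 fold change 2.999, FDR = 1.7e-05). Cd81, another tetraspanin, rose from 280.1 ± 14.0 to 537.8 ± 125.8 FPKM (FDR = 0.0036) and Cd47 from 339.8 ± 16.7 to 480.1 ± 24.5 FPKM (FDR = 0.0018). Without ABC replicate 3, 6 genes of the list were called higher and 2 lower, where 1963 of all 10368 tested genes were higher and 1680 lower. Between young and aged FO B cells, limma called no gene of any of these lists. At an unadjusted p under 0.05 it had 1 of the further chains, 2 ligands, 1 activator, 1 inhibitor, 3 adaptors or kinases and 2 membrane partners, of 1, 3, 13, 8, 11 and 10 tested, against the 12.8% over all tested genes.

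**Figure D4:**
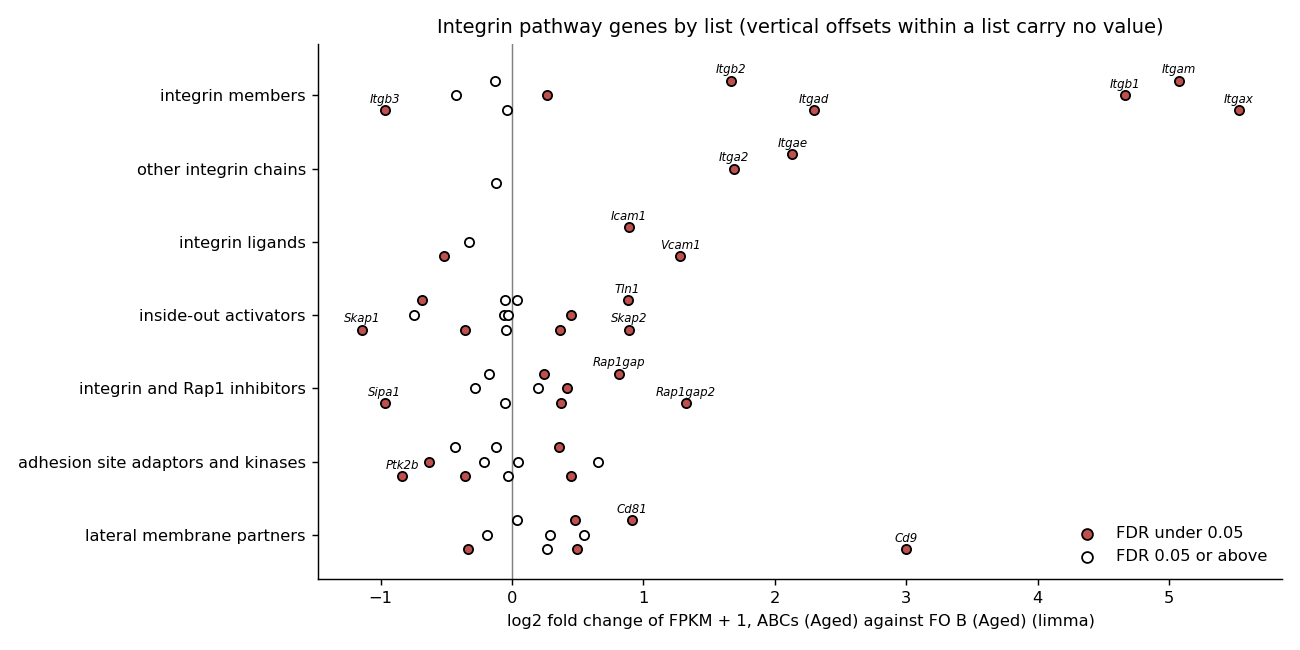
Log2 fold change of FPKM + 1 in ABCs against aged FO B cells (x axis) for each tested gene of the integrin lists (y axis). Filled points passed an FDR of 0.05. Itgax, Itgam, Itgb1 and Cd9 lie farthest to the right, while activators and adaptors lie on both sides of 0. Itgam and Itgax were set by the gate. Itgad, Itgae, Itga2, Vcam1, Rap1gap and Rap1gap2 entered the test only through ABCs, and Skap1 only through FO B cells. The fill of these points is not given as a result.

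Genes were compared by the root mean square difference of centred log2(FPKM + 1) over the 9 libraries, among 10375 genes. This difference includes the step between FO B cells and ABCs, which the gate set for Itgam and Itgax. Nearness is therefore given only as a description. Itgam was among the 3 genes nearest to both Itgax and Itgb1. The 3 genes nearest to Itgam were S1pr5 (0.18), Nt5e (0.19) and Itgb1 (0.24), and those nearest to Itgax were Nt5e (0.25), Itgam (0.27) and Adgre1 (0.27). Itgb1 was nearest to Gm1965 (0.20), C130026I21Rik (0.23) and Itgam (0.24). Itgb2 was nearest to Ap1s2 (0.076), Galns (0.092) and Tnfaip8 (0.097). Itgad was nearest to Fzd6 (0.25), Klra9 (0.26) and Ndrg2 (0.27), Itgal to Map4k1 (0.040), Trappc1 (0.046) and Fkbp8 (0.047), and Itgb3 to Dcaf12 (0.12), Snhg7 (0.12) and Fcrl1 (0.13).

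Since Itgam, Itgax and Itgad are also genes of myeloid and other cells, marker lists were read beside them. The 14 macrophage and monocyte markers summed to 95.7 to 114.8 FPKM in ABCs and to 20.4 to 29.9 FPKM in aged FO B cells, with Ly6c2 alone at 61.3 to 84.1 FPKM in ABCs. Of these 14, 7 were tested and 4 were called higher in ABCs: Ly6c2, Hmox1 (1.11 to 1.57 FPKM in aged FO B cells, 6.79 to 9.47 in ABCs), Cd68 (3.15 to 4.70 and 6.38 to 13.1) and Vcam1, the last of which passed the filter only through ABCs. Lyz2, C1qb and C1qc were tested and not called, at up to 7.02, 2.42 and 4.03 FPKM in ABCs and up to 7.06, 1.59 and 1.07 in aged FO B cells. The other 7 averaged under 1 FPKM. Of these, Ccr2 reached 1.93 FPKM in ABC replicate 3 and C1qa 0.84 in ABC replicate 1, while Csf1r, Cd14 and Fcgr1 were at most at 0.83 FPKM in any ABC library. The 8 NK cell markers summed to 29.5 to 38.2 FPKM in ABCs, against 0.83 to 1.71 in aged FO B cells, of which Prf1 gave 24.1 to 38.0. Klrd1 was at 2.99, 3.21 and 0 FPKM in ABCs and at 0.15 to 0.52 in aged FO B cells. Nkg7 was at 2.03, 1.84 and 0.20 FPKM in ABCs and at 0 to 0.19 in aged FO B cells. The other 5 averaged under 1 FPKM in ABCs, and of these Ncr1 was at 0 in 2 of 3 ABC libraries. The 8 dendritic cell markers summed to 34.6 to 42.2 FPKM in ABCs against 33.3 to 54.8, of which Bst2 gave 25.6 to 28.7 and 29.1 to 51.2. Batf3 was at 1.99 to 9.46 FPKM in ABCs and at 0 in all aged FO B libraries, and Zbtb46 was at 2.90 to 3.34 FPKM against 0.44 to 1.46. Both passed the filter only through ABCs. Flt3 went the other way, at 0.105 to 1.17 FPKM in ABCs against 1.11 to 2.85, and passed only through FO B cells. Siglech was at 0.664 to 1.56 FPKM in ABCs against 0 to 0.360. Xcr1, Clec9a and Clec10a were at most at 0.370 FPKM in any ABC library. The 9 platelet and megakaryocyte markers summed to 0.67 to 2.97 against 0.55 to 1.59, and the 8 neutrophil markers listed to 2.92 to 4.38 against 4.32 to 26.2.

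Of the lymphocyte lists, the 10 T cell markers summed to 5.20 to 39.4 FPKM in ABCs against 1.44 to 2.98 in aged FO B cells, of which Cd3g gave 4.93 to 37.0, with Cd3e at 0 in 2 of 3 ABC libraries. The 5 B-1 cell markers summed to 191.1 to 244.2 FPKM in ABCs against 5.16 to 7.85, and all 5 were called higher, 2 of them having passed the filter only through ABCs. Zbtb32 was at 105.0 to 122.7 FPKM in ABCs, Spn, the gene of CD43, by whose absence both populations were gated, at 54.1 to 86.7, Bhlhe41 at 26.1 to 32.1 and Cd5 at 0.66 to 2.86. The 6 plasma cell markers summed to 191.0 to 225.3 FPKM against 129.2 to 147.8, and the 5 marginal zone markers to 118.8 to 171.4 against 214.4 to 246.9. These 5 did not move together. Cr2, the gene of CD21, which was part of both gates, was at 0.745 to 8.39 FPKM in ABCs against 127 to 166. S1pr3 was higher, at 40.3 to 125 FPKM against 3.64 to 4.23. Cd1d1 was at 17.7 to 32.6 FPKM against 38.7 to 52.5, Myof at 0.0175 to 0.407 against 1.22 to 2.46, and Dtx1 at 27.8 to 37.1 against 29.7 to 34.1. The 4 follicular markers listed summed to 280.6 to 565.5 FPKM in ABCs and to 1745 to 1800 in aged FO B cells. The part of these genes' cells in the integrin values was not tested.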

How the data were processed

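Per the labels, SMART-Seq HT cDNA of sorted B cells was turned into Nextera XT libraries, which mark no strand. For each library the authors deposited a table of gene symbols with their FPKM. The submitters' processing notes name mm10, TopHat2 2.1.1, Bowtie2 2.2.8, SAMtools 0.1.18 and Cuffdiff 2.2.1, the methods name other versions of some, and the annotation is not given in the sources used here.

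From the FPKM values, log2(FPKM + 1) was fitted with limma 3.58.1 in R 4.3.3 (eBayes with a trend) on the libraries of both groups compared, for genes that averaged 1 FPKM or more, with Benjamini-Hochberg adjustment over all of them. Single values, shares and ratios were tested by exact two-sided permutation over 20 orders. Depth was estimated from the FPKM of 1 read in 1174 genes with a single transcript. Reads were recovered for genes whose values under 500 reads all lay within 0.03 of whole reads, and larger values were rounded. Their intervals cover counting error only. A fitted fold change of Itgad, at 0 in some libraries, depends on the pseudocount and is no bound. Ighd and Ly6g, 2 of the markers, were not used here, and some items are not reported here.

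The members and lists were chosen with earlier results of these data known. Named were all members, the 3 called genes of largest change per list, and the 3 nearest genes of each called member. Fermt3 and the genes in the marker paragraphs were named after their values were seen. Other settings tried were a pseudocount of 0.1 or 0.01, a minimum mean of 5 FPKM or none, quantile, TPM and upper quartile scaling, eBayes without a trend, all 9 libraries, other thresholds, a replicate block and each library left out. Python 3.11.15, numpy 2.4.6, pandas 2.3.3, scipy 1.17.1 and matplotlib 3.10.9 were used.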

Additional observations from a re-analysis of the deposited data

How the results depend on the processing

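Against aged FO B cells, 7 integrin chain genes were called in ABCs, where 19.4% of all tested genes were called higher and 16.5% lower. At an FDR under 0.01 with an absolute log2 fold change above 2.3, 3 were called, beside 1.49% and 0.432% of all tested genes. The 7 include Itgam, Itgax and Itgad, which passed the filter only through ABCs, and the 3 include the gate genes Itgam and Itgax. Against young FO B cells, 7 were called at an FDR under 0.05, the same 3 among them, beside 21.6% of all tested genes higher and 19.1% lower. Leaving out each library in turn gave 5 to 7 calls in both comparisons, and 0 between young and aged FO B cells under every alternative. Over all tested genes, leaving out each library gave 1496 to 1963 higher and 1054 to 1680 lower calls against aged FO B cells. Against young FO B cells it gave 1745 to 2212 and 1312 to 1951. Itgb1, Itgb2 and Itgb3 kept their direction and their side of the threshold in both ABC comparisons under all alternatives that could test them. A mean of at least 5 FPKM left Itgad untested, and Itga6 and Itgb3 too.

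Single libraries turned the sign of log2 fold changes that were not called. Leaving out each library, Itga6 ranged from -0.26 to 0.00045 and Itgb7 from -0.19 to 0.11 in ABCs against aged FO B cells. Itgb3 ranged from -0.15 to 0.038 between ages, and Itgb7 from -0.027 to 0.27 in ABCs against young FO B cells.

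Leaving out each library, the difference between ABCs and aged FO B cells ranged from -70.3 to -68.5 percentage points for the share of Itgal and from -61.2 to -59.9 for that of Itgb7, from 0.102 to 0.166 for the ratio of alpha chains to Itgb2 and from 11.6 to 18.1 for the ratio of Itgb1 to its alpha chains. Between ages the same differences ranged from -0.826 to 0.116, from -0.929 to -0.454, from -0.0876 to -0.0496 and from 0.133 to 0.163.

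Same-numbered libraries of ABCs and aged FO B cells had deviations with correlations of 0.0827, -0.0175 and 0.109. ABC replicates 1 and 3 correlated best with their own number, and replicate 2 did not. Correlations this near 0 cannot decide whether equal numbers mark the same mice, and the main tests were unpaired. With the replicate block, limma called 1891 genes higher and 1557 lower, against 2020 and 1719 without it, and 7 of the 10 integrin genes in that comparison. With 3 libraries a group, the values of Itgad and Itgax in FO B cells rest on at most 7 reads a library.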
